A study of Mus musculus with 4 samples.

Results

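The 42 imprinted genes described here were taken by symbol from a list made up from their known imprinting, and all 42 were found among the 48395 genes of the table. Of these, 22 are known to be expressed from the paternal allele and 18 from the maternal allele. Grb10 and Gnas were kept apart, because the active allele depends on the promoter or the cell type. For other members, among them Ube3a and Igf2r, imprinting can also differ between tissues, so the parental classes are approximate. All 42 lie in 17 imprinted domains on 10 chromosomes, with 15 on chromosome 7. Genomic imprinting leaves certain genes active mainly on the chromosome inherited from one parent. The imprint is laid down in the germ line as DNA methylation at a control region, and it governs clusters of neighbouring genes, often through long noncoding RNAs. In the developing brain such genes take part in growth control, in the exit of progenitors from the cell cycle and in neuronal maturation. The libraries do not separate the parental alleles, so every value is the sum over both, and whether a gene was expressed from one allele in these cells was not measured.

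RNA came from fluorescent cells sorted from the cortex of ICR mouse embryos, an outbred strain. The Zeb1 group (2 libraries) had received a plasmid for the transcriptional repressor ZEB1 and the green fluorescent protein ZsGreen at E14.5, and the Control group (2 libraries) the same kind of plasmid with ZsGreen alone. Both plasmids used the ubiquitous CAG promoter, and cells of both groups were collected at E16.5, after 48 h. The electroporated cells of the Zeb1 group carry the transgene beside the unaltered endogenous gene. Zeb1 had 5622 and 6227 FPKM in Zeb1 libraries, against 35.2 and 18.6 FPKM in Control libraries (FPKM: fragments scaled to transcript length and library size, a level per length). Its log2 fold change was 7.80 (SE 0.35, limma adjusted p = 0.0192), and the call was lost with any library left out, with no filter on low values and with the replicate number as a block. Pooling of embryos or litters is not given in the sources used here, so each p rests on the spread among these samples alone, which may be technical. Relative depth, read from short genes, was 0.994 and 1.04 in Zeb1 libraries and 1.01 in the second Control library, against the first Control library, while the absolute depth is unknown. The libraries did not group by condition. Spearman correlations over 11916 protein-coding genes were 0.976 between Zeb1 libraries, 0.972 between Control libraries and 0.945 to 0.975 across groups, lowest between the first Zeb1 and the second Control library. Projection neuron markers summed to 2027 and 1806 FPKM in Zeb1 libraries and 2059 and 1946 FPKM in Control libraries, and 9 of 10 were found. By log2 fold change, 4 of these 9 were higher and 5 lower. Within that list Tbr1 had 64.8 and 74.8 FPKM in Zeb1 libraries, against 116 and 119 FPKM in Control libraries. Bcl11b lay the other way, with 22.5 and 36.4 FPKM in Zeb1 libraries, against 18.6 and 21.7 FPKM in Control libraries. Apical radial glia markers, all 10 tested, summed to 1520 and 1083 FPKM in Zeb1 libraries and 997 and 933 FPKM in Control libraries, with 7 of 10 higher by log2 fold change. Vim made up much of that sum, with 758 and 561 FPKM in Zeb1 libraries, against 392.4 and 384 FPKM in Control libraries. Microglial markers, all 12 tested, had a positive log2 fold change in all 12 (median 1.26, with 0 called), summing to 899 and 488 FPKM in Zeb1 libraries and 510 and 134 FPKM in Control libraries.

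Of the 42 imprinted genes, 33 averaged 1 FPKM or more across the 4 libraries and were tested with limma among 14330 genes. None of the 33 passed at an adjusted p under 0.05, where 28 of all genes tested (0.195%) did, 12 of them higher and 16 lower. With any library left out, 0 genes of the whole table passed. The lowest limma adjusted p of an imprinted gene was 0.545. At an unadjusted limma p under 0.05, 3 of the 33 (9.09%) were higher in Zeb1 libraries (Rian, Mest and Peg10), against 3.23% of all genes tested, and 0 were lower, against 3.68%. Of these 3, only Rian kept that p among genes averaging 5 FPKM or more, or in limma without its trend. Mest and Peg10 did not keep it with any library left out either. Both Zeb1 libraries lay above both Control libraries for 8 of the 33 genes (24.2%), against 18.2% of all genes tested. They lay below both for 5 (15.2%), against 19.5% of all genes tested, and the groups overlapped for the other 20. The median log2 fold change, Zeb1 minus Control on the log2(FPKM + 1) scale, was -0.01 over 19 paternally expressed genes, 0.02 over 12 maternally expressed genes and 0.0003 over all genes tested. The 95% intervals of single imprinted genes reached 0.35 to 1.20 to either side of the log2 fold change, with a median of 0.59, which sets how small a change 2 libraries a group could resolve.

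**Figure D1:**
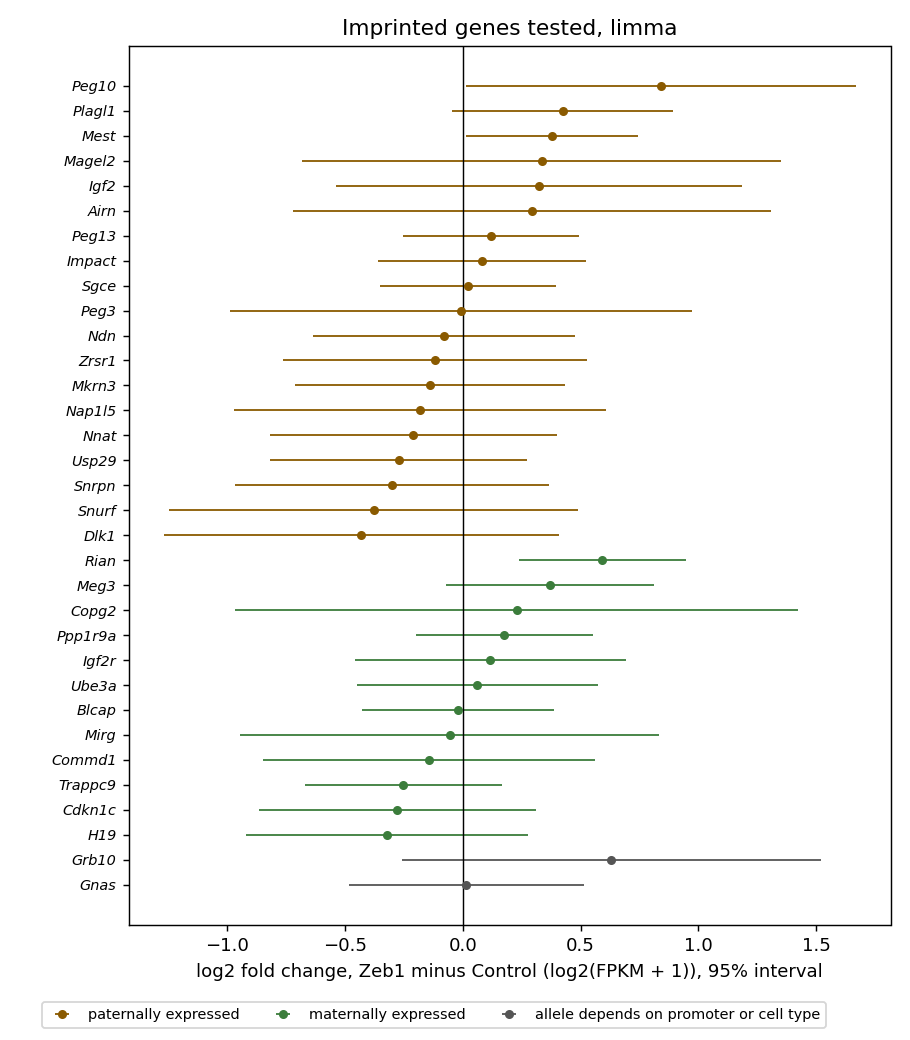
Log2 fold change of the 33 imprinted genes tested (points, Zeb1 minus Control on the log2(FPKM + 1) scale) with 95% limma intervals (bars), ordered by size within each class of expressed allele. The values run from -0.43 for Dlk1 to 0.84 for Peg10, and only the intervals of Rian, Mest and Peg10 leave out 0.

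Promoter sequences are shown for Meg3, Rian, Mest and Plagl1, the genes with the smallest p that had an entry in RefSeq (GRCm38.p6), chosen after their values were seen. Each runs from 250 bases before to 50 bases after the start of a transcript. Capitals mark CAGGTG or its reverse complement CACCTG, the E-box bound by ZEB proteins, and TGCCGC or its reverse complement GCGGCA, the letters that the imprint-protecting factor ZFP57 binds where they are methylated. The Meg3 window lies at chr12:109540746-109541045 and the Rian window at chr12:109603695-109603994, both on the plus strand. Mest has an upstream start with a window at chr6:30733256-30733555 and a downstream start with one at chr6:30737800-30738099, and the Plagl1 window lies at chr10:13090582-13090881, all on the plus strand.
Meg3: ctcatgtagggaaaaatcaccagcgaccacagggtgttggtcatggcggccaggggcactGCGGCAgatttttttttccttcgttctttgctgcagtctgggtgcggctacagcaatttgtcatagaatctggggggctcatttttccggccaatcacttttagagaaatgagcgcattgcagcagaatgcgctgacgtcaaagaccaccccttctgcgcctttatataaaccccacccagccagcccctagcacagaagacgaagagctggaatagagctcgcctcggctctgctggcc
Rian: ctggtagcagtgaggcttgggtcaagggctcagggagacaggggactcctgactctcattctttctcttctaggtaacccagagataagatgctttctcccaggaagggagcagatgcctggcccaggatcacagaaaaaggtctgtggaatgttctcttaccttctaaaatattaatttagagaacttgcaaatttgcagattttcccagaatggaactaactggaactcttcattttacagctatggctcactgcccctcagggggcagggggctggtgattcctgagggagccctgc
Mest, upstream start: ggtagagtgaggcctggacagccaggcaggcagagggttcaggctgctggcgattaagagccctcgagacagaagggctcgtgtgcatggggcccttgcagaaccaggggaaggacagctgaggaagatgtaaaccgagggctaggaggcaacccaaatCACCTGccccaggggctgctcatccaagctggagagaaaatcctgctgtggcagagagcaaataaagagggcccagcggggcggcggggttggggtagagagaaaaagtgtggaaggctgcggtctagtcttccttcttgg
Mest, downstream start: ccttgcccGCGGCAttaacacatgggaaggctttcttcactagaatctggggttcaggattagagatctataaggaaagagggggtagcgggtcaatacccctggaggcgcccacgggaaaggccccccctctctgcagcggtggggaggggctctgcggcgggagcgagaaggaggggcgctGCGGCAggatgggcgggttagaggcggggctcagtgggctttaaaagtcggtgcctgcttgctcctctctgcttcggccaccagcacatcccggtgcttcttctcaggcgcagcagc
Plagl1: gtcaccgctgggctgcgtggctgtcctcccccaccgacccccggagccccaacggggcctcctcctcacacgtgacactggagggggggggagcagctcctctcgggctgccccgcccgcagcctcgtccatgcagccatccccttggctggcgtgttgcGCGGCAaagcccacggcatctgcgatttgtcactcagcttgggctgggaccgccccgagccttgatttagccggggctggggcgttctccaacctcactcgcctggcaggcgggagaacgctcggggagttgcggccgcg

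The ZFP57 letters occurred 1 time in the Meg3 window, 2 times in that of the downstream start of Mest and 1 time in that of Plagl1. The E-box letters occurred 1 time, in the window of the upstream start of Mest. The Rian window held 0 CpG dinucleotides and neither motif, the Meg3 window shown 13 CpG and the Plagl1 window 26. A further Meg3 window, at chr12:109545148-109545447, held 1 CpG and neither motif. Of the 42 genes, 33 had at least 1 window in RefSeq, 49 windows in all. The ZFP57 letters were found in 13 of the 49 windows (26.5%), against 11.6% of all 32851 promoter windows, and the E-box letters in 8 (16.3%), against 20.2%. The median ratio of observed to expected CpG was 0.602 in the windows of imprinted genes and 0.384 in all windows. The ZFP57 letters hold a CpG themselves, and the shares were not matched for CpG content. Methylation and binding were not measured, and several windows belong to 1 gene, as for Gnas, where 3 windows held the E-box. A further Mest window, at chr6:30737803-30738102, overlaps the downstream one and holds the same 2 ZFP57 sites. Identical windows were merged for the imprinted genes but not for the background of all windows, so the shares are not counted quite alike.

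Neuronatin (Nnat), a small membrane protein of the endoplasmic reticulum that modulates calcium handling, was the most abundant imprinted gene and ranked 22nd of all genes by mean FPKM. It had 1445 and 1193 FPKM in Zeb1 libraries, against 1548 and 1489 FPKM in Control libraries. Both Zeb1 values lay below both Control values, but the log2 fold change of -0.21 (SE 0.22) did not pass in limma (adjusted p = 0.818). It was -0.35 without the first and -0.07 without the second Zeb1 library. Gnas, which encodes the stimulatory G-protein alpha subunit, had 617 and 541 FPKM in Zeb1 libraries, against 552 and 592 FPKM in Control libraries. The groups overlapped, with a log2 fold change of 0.01 (SE 0.18, limma adjusted p = 0.995). Blcap, a gene whose intron holds Nnat on the other strand, had 46.9 and 41.4 FPKM in Zeb1 libraries, against 42.7 and 46.8 FPKM in Control libraries. Its groups overlapped as well, with a log2 fold change of -0.02 (SE 0.15, limma adjusted p = 0.985).

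**Figure D2:**
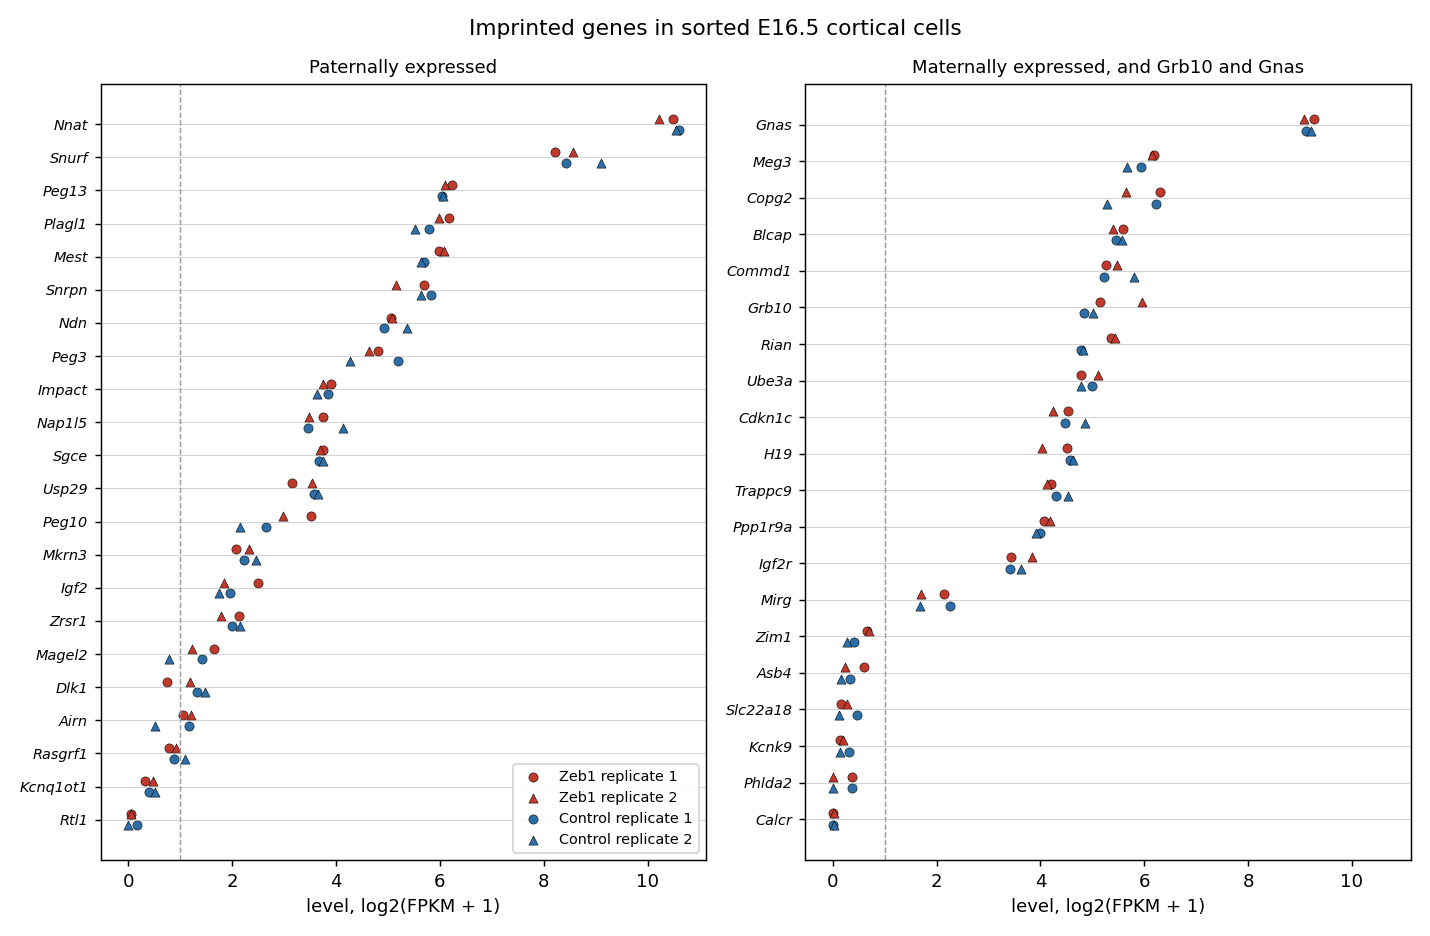
Level of all 42 imprinted genes in each library as log2(FPKM + 1), with Zeb1 libraries (red, upper row of each gene) and Control libraries (blue, lower row), circles for replicate 1 and triangles for replicate 2, and the dashed line at 1 FPKM. Levels span from 0 FPKM to 1548 FPKM for Nnat, and for 20 of the 33 genes tested the 2 groups overlap.

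In the Dlk1-Meg3 domain of chromosome 12, the maternal allele gives the noncoding RNAs Meg3, Rian and Mirg and the paternal allele gives the coding genes Dlk1 and Rtl1. Rian, the host RNA of many small nucleolar RNAs, had the smallest p of the imprinted genes. It had 40.2 and 42.3 FPKM in Zeb1 libraries, against 26.7 and 27.3 FPKM in Control libraries. The libraries of each group lay close together and the groups did not overlap. The log2 fold change was 0.59 (SE 0.13, 95% interval 0.24 to 0.95), with an unadjusted limma p of 0.00974 and an adjusted p of 0.545. Leaving out each library in turn gave log2 fold changes of 0.56 to 0.63. Meg3, the long noncoding RNA at the start of this cluster, had 72.2 and 69.8 FPKM in Zeb1 libraries, against 60.2 and 49.8 FPKM in Control libraries. Its groups did not overlap either, and the log2 fold change was 0.37 (SE 0.16, limma adjusted p = 0.749), or 0.23 without the second Control library. Mirg, the microRNA host at the far end, had 3.39 and 2.25 FPKM in Zeb1 libraries, against 3.80 and 2.21 FPKM in Control libraries, and these overlapped. Dlk1, a membrane protein related to Notch ligands, had 0.684 and 1.28 FPKM in Zeb1 libraries, against 1.51 and 1.78 FPKM in Control libraries. These low values did not overlap and lay on the other side from Rian and Meg3. Rtl1, a gene derived from a retrotransposon, reached at most 0.121 FPKM. The table lists 92 genes shorter than 200 bp between Dlk1 and Mirg, and 3 of these reached 0.01 FPKM in any library, so nothing is said here of the small RNAs of the cluster.

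**Figure D3:**
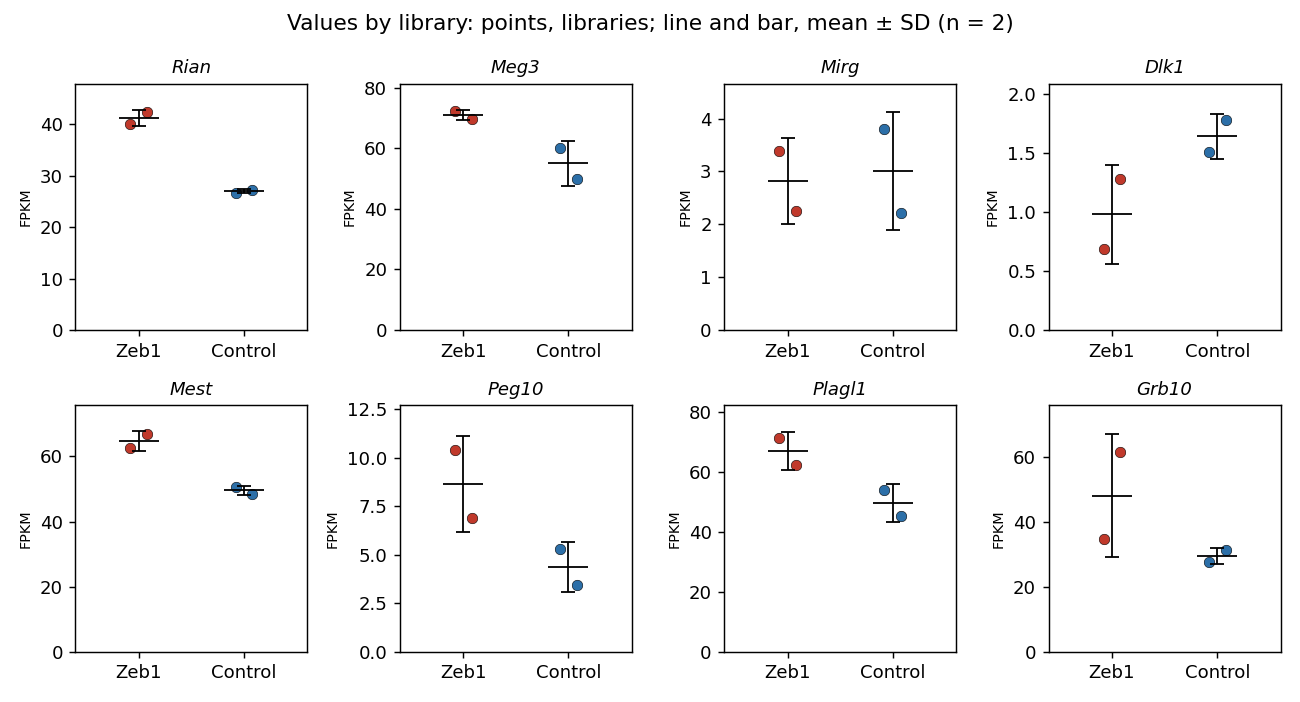
FPKM of 8 imprinted genes in the 2 Zeb1 libraries (red, left) and the 2 Control libraries (blue, right) on linear axes from 0, with the mean and SD (black, n = 2 each). Rian and Mest show tight, separate groups, Peg10, Plagl1 and Meg3 separate but wider ones, Mirg overlapping ones, and Grb10 a single high Zeb1 library at 61.5 FPKM.

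Mest, a paternally expressed gene of the alpha/beta hydrolase family, had 62.6 and 67.0 FPKM in Zeb1 libraries, against 50.6 and 48.6 FPKM in Control libraries. The groups were apart, with a log2 fold change of 0.38 (SE 0.13, 95% interval 0.01 to 0.74), an unadjusted limma p of 0.0452 and an adjusted p of 0.706. It ranged from 0.33 to 0.43 with a library left out. Copg2, a coat protein subunit of Golgi vesicles whose end overlaps that of Mest by 912 bp on the other strand, behaved otherwise. It had 78.4 and 49.4 FPKM in Zeb1 libraries, against 74.0 and 37.8 FPKM in Control libraries. The first replicate was high and the second low in both groups, the groups overlapped, and the log2 fold change was 0.23 (SE 0.43, limma adjusted p = 0.923). Plagl1, a zinc-finger transcription factor that regulates other imprinted genes and restrains the cell cycle, had 71.3 and 62.3 FPKM in Zeb1 libraries, against 54.0 and 45.2 FPKM in Control libraries. The groups did not overlap, but its limma adjusted p was 0.742.

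Peg10, derived from a retrotransposon and paternally expressed, had 10.4 and 6.88 FPKM in Zeb1 libraries, against 5.27 and 3.46 FPKM in Control libraries. The groups did not overlap, and the log2 fold change of 0.84 was the highest among the imprinted genes tested (SE 0.30, 95% interval 0.02 to 1.67), with an unadjusted limma p of 0.0475 and an adjusted p of 0.714. It ranged from 0.58 to 1.11 with a library left out. Peg10, Plagl1 and Meg3 had the same order of the 4 libraries as the summed apical radial glia markers. Within that list only Vim, which made up much of the sum, and Slc1a3 had this order themselves, and the other markers did not. Fabp7, for example, had 244 and 152 FPKM in Zeb1 libraries, against 218 and 202 FPKM in Control libraries. The highest and lowest libraries of Peg10, Plagl1 and Meg3 were also those of the microglial markers. The part of either cell type in these differences was not tested. In bulk libraries a different number of cells of a type and a different amount of RNA per cell cannot be told apart. Sgce, which encodes epsilon-sarcoglycan and starts 98 bp from Peg10 on the other strand, had 12.5 and 11.95 FPKM in Zeb1 libraries, against 11.7 and 12.4 FPKM in Control libraries, and these overlapped. Ppp1r9a, which encodes the actin-binding synaptic protein neurabin and is maternally expressed, had 15.8 and 17.1 FPKM in Zeb1 libraries, against 14.8 and 14.1 FPKM in Control libraries. Its groups were apart by under 1 FPKM. Asb4 and the calcitonin receptor gene Calcr, the other members of the domain, reached at most 0.520 and 0.0242 FPKM.

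Igf2, the fetal growth factor, had 4.68 and 2.59 FPKM in Zeb1 libraries, against 2.90 and 2.35 FPKM in Control libraries. The groups overlapped, and the first replicate was the higher one in each. Igf2 in brain is best known from the choroid plexus and the meninges. The choroid plexus marker Ttr had 7.32 and 0.0941 FPKM in Zeb1 libraries and 14.45 and 0.0970 FPKM in Control libraries, so it too was high in the first replicates. Of 8 choroid plexus markers only Ttr reached the level for testing, and the others stayed under 1 FPKM in every library. Among these, Otx2 was higher in the second Control library (0.279 and 0.795 FPKM) and Kcne2 in the second Zeb1 library (0 and 0.0334 FPKM). The remaining ones were higher in the first replicates of both groups. The 12 meningeal markers summed to 24.7 and 17.4 FPKM in Zeb1 libraries and 30.9 and 27.4 FPKM in Control libraries. Only 2 of these 12 reached the level for testing, and Cxcl12 made up most of the sum, with 19.3 and 12.6 FPKM in Zeb1 libraries and 26.6 and 23.2 FPKM in Control libraries. The collagen gene Col1a1 lay the other way, with 1.1003 and 0.593 FPKM in Zeb1 libraries and 0.380 and 0.120 FPKM in Control libraries, as did Col1a2 and Col3a1, each under 1 FPKM. Lum and Dcn were near 0 (at most 0.293 FPKM). The part of these cell types in the Igf2 values was not tested. H19, the maternally expressed noncoding RNA beside Igf2, had 21.96 and 15.4 FPKM in Zeb1 libraries, against 22.7 and 23.8 FPKM in Control libraries. Both Zeb1 values were lower, the first by under 1 FPKM. Igf2r, the receptor that clears IGF2, had 9.83 and 13.3 FPKM in Zeb1 libraries, against 9.68 and 11.3 FPKM in Control libraries. Airn, the antisense RNA that silences Igf2r on the paternal allele in most tissues, had 1.08 and 1.32 FPKM in Zeb1 libraries, against 1.25 and 0.427 FPKM in Control libraries. Both overlapped between groups. Grb10, an adaptor that dampens insulin and IGF receptor signalling, had 34.7 and 61.5 FPKM in Zeb1 libraries, against 27.7 and 31.4 FPKM in Control libraries. The groups were apart, but the first Zeb1 library lay close to the controls. The log2 fold change of 0.63 (SE 0.32) did not pass in limma (adjusted p = 0.764). It was 1.04 without the first and 0.23 without the second Zeb1 library. Cdkn1c, the cell-cycle inhibitor p57, had 22.1 and 17.8 FPKM in Zeb1 libraries, against 21.2 and 27.9 FPKM in Control libraries, which overlapped. Its neighbours Phlda2, a brake on placental growth, the transporter gene Slc22a18 and the noncoding RNA Kcnq1ot1 reached at most 0.289, 0.376 and 0.424 FPKM.

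The domain from Ube3a to Mkrn3 on chromosome 7, known from the Prader-Willi and Angelman syndromes, had 6 genes, all tested, and in all 6 the groups overlapped. Snurf, a short reading frame that shares its transcript with Snrpn, had 297 and 376 FPKM in Zeb1 libraries, against 342 and 551 FPKM in Control libraries. One Control library stood high, and the log2 fold change was -0.38 (SE 0.31, limma adjusted p = 0.778). It was -0.72 without the first and -0.03 without the second Control library, and -0.21 without the first Zeb1 library. Snrpn, a spliceosome protein of neurons, had 51.0 and 34.7 FPKM in Zeb1 libraries, against 55.9 and 48.6 FPKM in Control libraries. The loci of Snurf and Snrpn overlap by 9601 bp on the same strand, so the split of reads between them is uncertain. Annotated exons cover 216 bp for Snurf and 2159 bp for Snrpn. With so short a length for Snurf, their FPKM are not to be read as relative abundance. Ube3a, a ubiquitin ligase expressed from the maternal allele in neurons, had 26.6 and 33.6 FPKM in Zeb1 libraries, against 30.7 and 26.7 FPKM in Control libraries. Its antisense partner Snhg14, chosen after its values were seen, had 20.8 and 16.0 FPKM in Zeb1 libraries, against 27.2 and 16.2 FPKM in Control libraries, in the longest of 9 entries. That entry does not reach Ube3a. The Snhg14 entry that overlaps Ube3a had 0.633 and 1.44 FPKM in Zeb1 libraries, against 0.751 and 0.999 FPKM in Control libraries, under the level for testing. None of these separated the groups. The MAGE family gene Ndn had 32.3 and 32.9 FPKM in Zeb1 libraries, against 29.5 and 40.3 FPKM in Control libraries. Its relative Magel2 had 2.16 and 1.35 FPKM in Zeb1 libraries, against 1.69 and 0.734 FPKM in Control libraries. Mkrn3, a RING-finger gene that restrains puberty, had 3.23 and 3.996 FPKM in Zeb1 libraries, against 3.68 and 4.48 FPKM in Control libraries.

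Peg3, a paternally expressed zinc-finger gene, had 27.0 and 24.0 FPKM in Zeb1 libraries, against 35.5 and 18.4 FPKM in Control libraries. The Zeb1 values lay between the Control values. Usp29, a deubiquitinase gene that starts 146 bp away on the other strand, had 7.85 and 10.7 FPKM in Zeb1 libraries, against 10.98 and 11.6 FPKM in Control libraries. Both Zeb1 values were lower, the second by under 1 FPKM. Zim1, the maternally expressed zinc-finger gene of this domain, had 0.584 and 0.631 FPKM in Zeb1 libraries, against 0.327 and 0.214 FPKM in Control libraries, under the level for testing.

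Peg13, a noncoding RNA in an intron of Trappc9, had 74.2 and 67.9 FPKM in Zeb1 libraries, against 65.0 and 65.4 FPKM in Control libraries. The log2 fold change was 0.12 (SE 0.13, limma adjusted p = 0.835), with groups that did not overlap. It was 0.06 without the first and 0.18 without the second Zeb1 library. Trappc9, a vesicle-trafficking gene with a maternal bias in brain, had 17.4 and 16.4 FPKM in Zeb1 libraries, against 18.8 and 21.995 FPKM in Control libraries, so that both Zeb1 values were lower here and higher for Peg13. The loci overlap by 4725 bp on the same strand, so the split of reads between them is uncertain too. Kcnk9, a potassium channel gene of the same domain, reached at most 0.247 FPKM. Commd1, a gene of copper handling, had 37.5 and 43.4 FPKM in Zeb1 libraries, against 36.2 and 55.0 FPKM in Control libraries. Zrsr1, a retrogene in an intron of Commd1 that encodes a splicing factor, had 3.40 and 2.43 FPKM in Zeb1 libraries, against 2.98 and 3.47 FPKM in Control libraries. Both overlapped between groups. Nap1l5, a nucleosome assembly protein family gene, had 12.5 and 10.2 FPKM in Zeb1 libraries, against 10.1 and 16.5 FPKM in Control libraries. Impact, a regulator of translation under amino acid shortage, had 13.9 and 12.5 FPKM in Zeb1 libraries, against 13.5 and 11.4 FPKM in Control libraries. These pairs overlapped too. The Ras activator Rasgrf1 lay just outside the level for testing, with a mean of 0.895 FPKM, and Airn just inside, with 1.02 FPKM.

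**Figure D4:**
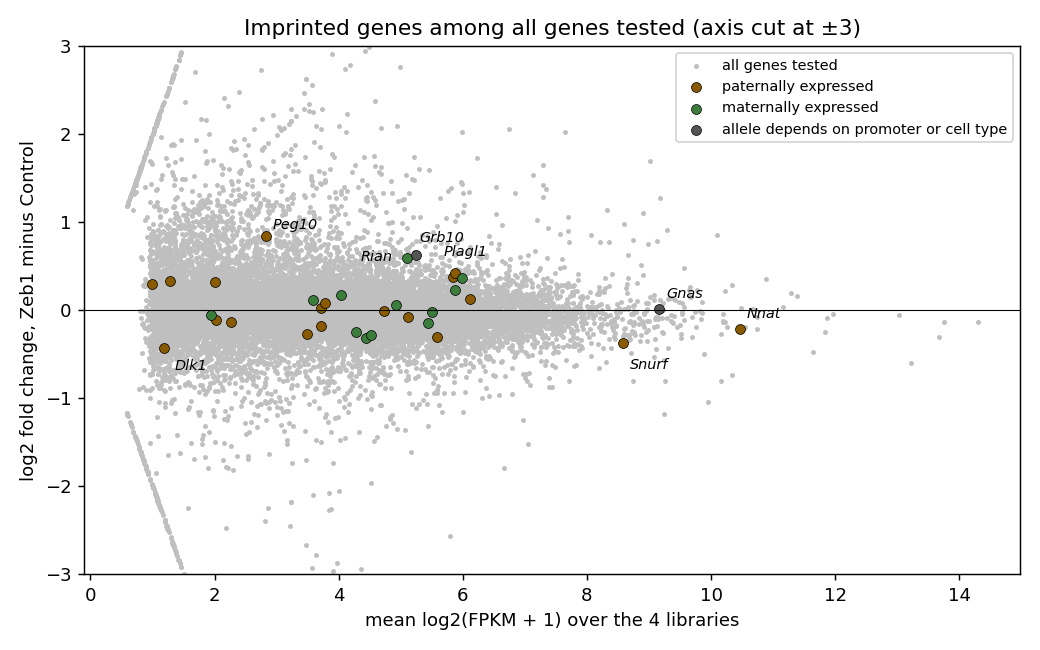
Log2 fold change (Zeb1 minus Control) against mean level, log2(FPKM + 1) over the 4 libraries, for all 14330 genes tested (grey) and the 33 imprinted genes (colours by expressed allele). The axis ends at 3 in either direction and leaves out 179 genes, and the imprinted genes lie within the grey cloud, with Peg10 highest and Dlk1 lowest.

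Of 6 pairs of imprinted genes whose loci overlap, 4 lie on opposite strands (Nnat with Blcap, Zrsr1 with Commd1, Mest with Copg2 and Igf2r with Airn), and a strand-specific count is not stated. In all, 21 of the 42 genes overlap some gene of 200 bp or more on the other strand. These overlaps are of whole loci, introns included. Where both transcripts cover the same bases, reads of such partners cannot be told apart without strand, and how many reads this concerns is unknown.

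Of 36 further imprinted genes listed, 35 were in the table, 19 were tested and 0 passed in limma over all genes. At an unadjusted p below 0.05, 2 of the 19 were higher, against 3.23% of all genes tested, and 1 was lower, against 3.68%. The median log2 fold change was 0.15. Pon3, a paraoxonase gene of the Peg10 domain, had 4.53 and 4.26 FPKM in Zeb1 libraries, against 2.56 and 1.01 FPKM in Control libraries. Gab1, a signalling adaptor, had 23.3 and 20.9 FPKM in Zeb1 libraries, against 17.2 and 15.8 FPKM in Control libraries. Herc3, the host gene of Nap1l5, had 24.1 and 28.7 FPKM in Zeb1 libraries, against 36.6 and 35.0 FPKM in Control libraries. In each of these 3 the groups were apart, as for 18.2% (higher) and 19.5% (lower) of all genes tested, with limma adjusted p of 0.706 for Pon3 and 0.714 for Gab1 and Herc3.

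Among 23 genes of imprint protection and DNA methylation, 20 were tested and 0 passed in limma. At an unadjusted p below 0.05, 0 of the 20 were higher, against 3.23% of all genes tested, and 1 was lower, against 3.68%, a share near that background. The median log2 fold change was -0.04. The lower one was Zfp57, which encodes the zinc-finger protein that guards methylated imprints. It had 199 and 215 FPKM in Zeb1 libraries, against 291 and 268 FPKM in Control libraries, a log2 fold change of -0.43 (SE 0.15, limma adjusted p = 0.714). The maintenance methylation factor Uhrf1 had 31.5 and 29.8 FPKM in Zeb1 libraries, against 24.8 and 22.5 FPKM in Control libraries. The methyltransferase gene Dnmt3a had 47.5 and 48.4 FPKM in Zeb1 libraries, against 41.0 and 34.7 FPKM in Control libraries. All 3 had separate groups, with limma adjusted p of 0.729 for Uhrf1 and 0.755 for Dnmt3a.

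Of 21 genes of IGF and insulin signalling, 20 were tested and 0 passed in limma. At an unadjusted p below 0.05, 1 of the 20 was higher, against 3.23% of all genes tested, and 0 were lower, against 3.68%, again near the background. The median log2 fold change was 0.05. Igf2bp1, an RNA-binding protein of Igf2 messenger RNA, had 18.3 and 15.0 FPKM in Zeb1 libraries, against 12.1 and 8.27 FPKM in Control libraries. Its relative Igf2bp3 had 19.7 and 18.3 FPKM in Zeb1 libraries, against 15.6 and 12.99 FPKM in Control libraries. Igfbp2, a secreted IGF-binding protein, had 69.4 and 57.6 FPKM in Zeb1 libraries, against 83.3 and 118 FPKM in Control libraries. The groups were apart for all 3, with limma adjusted p of 0.714 for Igf2bp1, 0.748 for Igf2bp3 and 0.726 for Igfbp2.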

How the data were processed

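Each of the 4 libraries has a column of FPKM in the deposited table, a normalized level made by the authors. The submitters' processing notes name STAR, Cufflinks, DESeq2 and build GRCm38, with neither versions nor roles. The table held 48395 genes and 1 emptied line. Names that a spreadsheet had made into dates (27) were restored from gene identifiers, and the longest locus stood for a repeated symbol. Set beside GENCODE, 43309 starts were counted from 0 and 202 from 1, and 1 was added to each start. FPKM are not counts, and no count model was fitted.

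Log2(FPKM + 1) values were fitted with limma (version 3.58.1, with an intensity trend, two-sided) in R (version 4.3.3). The 14330 genes that averaged 1 FPKM or more were tested, with Benjamini-Hochberg adjustment over all of them. Simulated data with known changes served to check the steps. With 2 libraries a group, the smallest p of an exact permutation test is 0.333, so none was run. Relative depth is the most common ratio, among ratios near 1, of the values of genes shorter than 200 bp.

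The imprinted genes and lists were chosen with earlier results of these data known. Values by library are given for members that averaged 1 FPKM or more, full statistics for those at an unadjusted p under 0.05 and the 3 most abundant of each parental class, and values for at most 3 genes by p of each other list. The values of Zim1, Snhg14 and the adjusted p of Plagl1 fall outside this rule and were chosen after being seen. The closing section names the alternatives.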

Additional observations from a re-analysis of the deposited data

How the results depend on the processing

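The alternatives were pseudocounts (0.1, 0.5), other filters (none, or 5 FPKM), 3 rescalings (same total, quantile, median of ratios), limma with robust moderation or without its trend, a replicate block, short genes left out, Snurf counted with Snrpn, and each library left out (the lone library is then assumed to vary like the other group). Under all of these, 0 imprinted genes passed over all genes, and Rian had an unadjusted p under 0.05. The count higher at that p, 3 as reported, was 4 after rescaling to the same total and 4 after quantile normalization. It was 2 with a pseudocount of 0.1, with robust moderation, with the replicate block or with short genes left out. It was 1 at 5 FPKM or more and 1 without the trend. With no filter Zim1 stood in place of Peg10, and with median-of-ratios scaling Plagl1 stood in place of Mest. With any library left out, neither Mest nor Peg10 kept that p. The count lower was 0 to 1, with H19 lower without Zeb1 replicate 1. The maternal median log2 fold change was 0.061 at 5 FPKM or more, and with a library left out -0.070 to 0.087, the paternal one -0.099 to 0.056. With a library left out, Blcap ranged from -0.110 to 0.068, Copg2 from -0.247 to 0.704 and Gnas from -0.080 to 0.110. Blcap was 0.0076 after rescaling to the same total and 0.0084 after quantile normalization. The causes were not tested.

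Over all genes, 28 calls became 1 with no filter, 3 without short genes and 0 with any library left out. Zeb1 lost its call with no filter (limma adjusted p = 0.229), with the replicate block (0.0735) and with a library left out (0.104 to 0.288). The replicate numbers are not said to pair the libraries, and deviations of same-numbered libraries correlated at 0.083 over all genes tested and 0.368 over protein-coding ones. With the replicate block, 11 genes passed, 0 of them imprinted. A balanced block leaves fold changes as they are (7.80 for Zeb1). With 2 libraries a group and unknown depth, small changes of low genes cannot be resolved.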
